A study of Mus musculus with 6 samples.

Results

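T and NK cell genes were followed in RNA-seq of mouse mammary tumors as a list of 42 genes, taken by gene symbol out of the 55385 genes in each deposited table. The list covers the T cell receptor (TCR) complex, its signalling proteins, coreceptors, naive, regulatory and cytotoxic genes, and NK cell receptors. All 42 were found. The 6 libraries came from female NeuT/ATTAC mice. All of the mice carried a constitutively active rat ErbB2 (V664E) driven by the MMTV promoter, together with an FKBPv-caspase-8 fusion driven by the FABP4 promoter of fat cells. Injections of 0.4 mg/kg AP20187, which dimerizes the fusion, began at 6 weeks of age. The 3 DMHCA libraries came from mice that also received 0.05% DMHCA in the diet, about 100 mg/kg, from 8 weeks of age. DMHCA is a sterol compound that activates the nuclear receptor LXR. The label of the 3 control libraries can be read as AP20187 with vehicle or as vehicle alone, and the tissue label names fibrotic mammary gland, whereas the study describes tumors of AP20187-treated mice. The age at which tissue was taken is not given in the sources used here. RNA was made from whole tissue, so fewer cells of a type and less RNA per cell cannot be told apart.

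A T cell recognizes antigen with the TCR, a pair of variable chains held in the membrane by the CD3 and zeta chains. CD4 and CD8 are the coreceptors that separate helper from killer T cells. Lck and Zap70 are the kinases that carry the first steps of the signal. Naive and resting T cells are kept by Il7r and by the transcription factors Tcf7 and Lef1, regulatory T cells are defined by Foxp3, and killer T cells and NK cells lyse their targets with perforin and granzymes.

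Upstream sequences of 4 of the genes are shown first, 2 of the TCR complex and 2 of the cytotoxic genes. Promoter sequence was matched for 29 of the 42 genes, as 40 windows of 250 bases upstream of RefSeq transcript starts (GRCm38.p6). The Cd3d window lies at chr9:44981536-44981785 (plus strand) and the Cd3e window at chr9:45009612-45009861 (minus strand). Both belong to TCR genes with a DMHCA mean far below the control mean. The Gzmb window lies at chr14:56262335-56262584 (minus strand) and the Prf1 window at chr10:61297586-61297835 (plus strand). They belong to granzyme B and perforin, a cytotoxic pair whose values went apart and which was chosen for display after its values were seen. Capitals mark the motifs TGTGGT (RUNX), CAGGAA (ETS), CTTTGA (TCF and LEF) and TGANTCA (AP-1) on either strand, each written 5′ to 3′ on the strand of the gene.
Cd3d: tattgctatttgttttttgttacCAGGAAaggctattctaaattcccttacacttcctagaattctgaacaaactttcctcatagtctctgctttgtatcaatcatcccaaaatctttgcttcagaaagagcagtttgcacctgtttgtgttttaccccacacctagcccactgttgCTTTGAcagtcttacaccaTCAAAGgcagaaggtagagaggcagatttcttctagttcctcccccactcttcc
Cd3e: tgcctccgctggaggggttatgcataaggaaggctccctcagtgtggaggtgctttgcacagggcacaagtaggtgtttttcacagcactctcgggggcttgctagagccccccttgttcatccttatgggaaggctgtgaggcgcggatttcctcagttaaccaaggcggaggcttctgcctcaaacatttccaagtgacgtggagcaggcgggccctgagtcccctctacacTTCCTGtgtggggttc
Gzmb: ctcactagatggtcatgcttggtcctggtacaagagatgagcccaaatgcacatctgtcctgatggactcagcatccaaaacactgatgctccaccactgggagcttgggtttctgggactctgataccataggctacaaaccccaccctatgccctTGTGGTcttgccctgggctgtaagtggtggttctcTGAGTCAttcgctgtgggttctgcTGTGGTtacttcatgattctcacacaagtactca
Prf1: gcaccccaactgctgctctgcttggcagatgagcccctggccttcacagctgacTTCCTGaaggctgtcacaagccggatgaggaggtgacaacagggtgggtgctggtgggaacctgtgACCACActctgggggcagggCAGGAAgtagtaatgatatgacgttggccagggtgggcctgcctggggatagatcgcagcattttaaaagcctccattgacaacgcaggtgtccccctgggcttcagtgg
None of the marked motifs overlapped another in these 4 windows. The RUNX letters were in 25% of the 40 windows and in 14% of all 32851 RefSeq windows of this length, and the 9 genes that held them were Gzma, Gzmb, Klrb1c, Klrk1, Lck, Ncr1, Nkg7, Prf1 and Zap70. ETS letters were in 35% of the windows against 25.7% of all, and TCF and LEF letters in 15% against 13.8%. The AP-1 letters were in the Gzmb window alone among those of the listed genes (2.5% against 6.75% of all windows). An LXR response element, searched as a pair of AGGTCA half-sites spaced by 4 bases, was in 0 of the 40 windows and in 0.0152% of all windows. With 5 of the 32851 windows matched, this exact pair was too rare for its absence to be informative. The study lists Coro1a and Sash3 among genes that contain an LXR response element. The motif matches describe letters in a window and no binding was measured.

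Before the results, 3 libraries have to be set apart. DMHCA libraries 1 and 3 were near-identical. Their biological coefficient of variation, the variation beyond counting error, was 0.0327, against 0.376 to 0.579 in the other 5 pairs within a group, and 18.1% of 13380 genes differed between them by a chi-square test against 82.1% to 87.8% in the other pairs. They were therefore summed and counted as 1 sample, which left 3 control and 2 DMHCA samples. Among 40 of the T and NK cell genes the scaled ratio of DMHCA library 1 to library 3 had a median of 1.02 and a range of 0.639 to 2.82. The highest ratio was that of Ncr1, and 8 of the 40 genes differed between these libraries at an exact binomial p under 0.05 (Sash3, Coro1a, Cd8a, Cd27, Gzma, Gzmb, Nkg7 and Ncr1), against 15.3% of 19382 genes by the same test. Control library 3 held far more RNA of these genes than any other library. The summed level of the 42 genes was 160, 46.1 and 999 TPM (transcript counts per length, scaled to one total in each library) in control libraries 1, 2 and 3 and 85.7, 55.6 and 77.5 TPM in DMHCA libraries 1, 2 and 3. The DMHCA sums lay between those of control libraries 1 and 2. Defining T cell markers were sparse in control library 2, where Cd3e had 6 expected counts, against 996 in control library 3. Markers of luminal epithelium summed to 3460 to 5160 TPM in the 6 libraries. Rounded expected counts, the deposited read estimates per gene, totalled 46358654 to 63420620 per library.

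**Figure D1:**
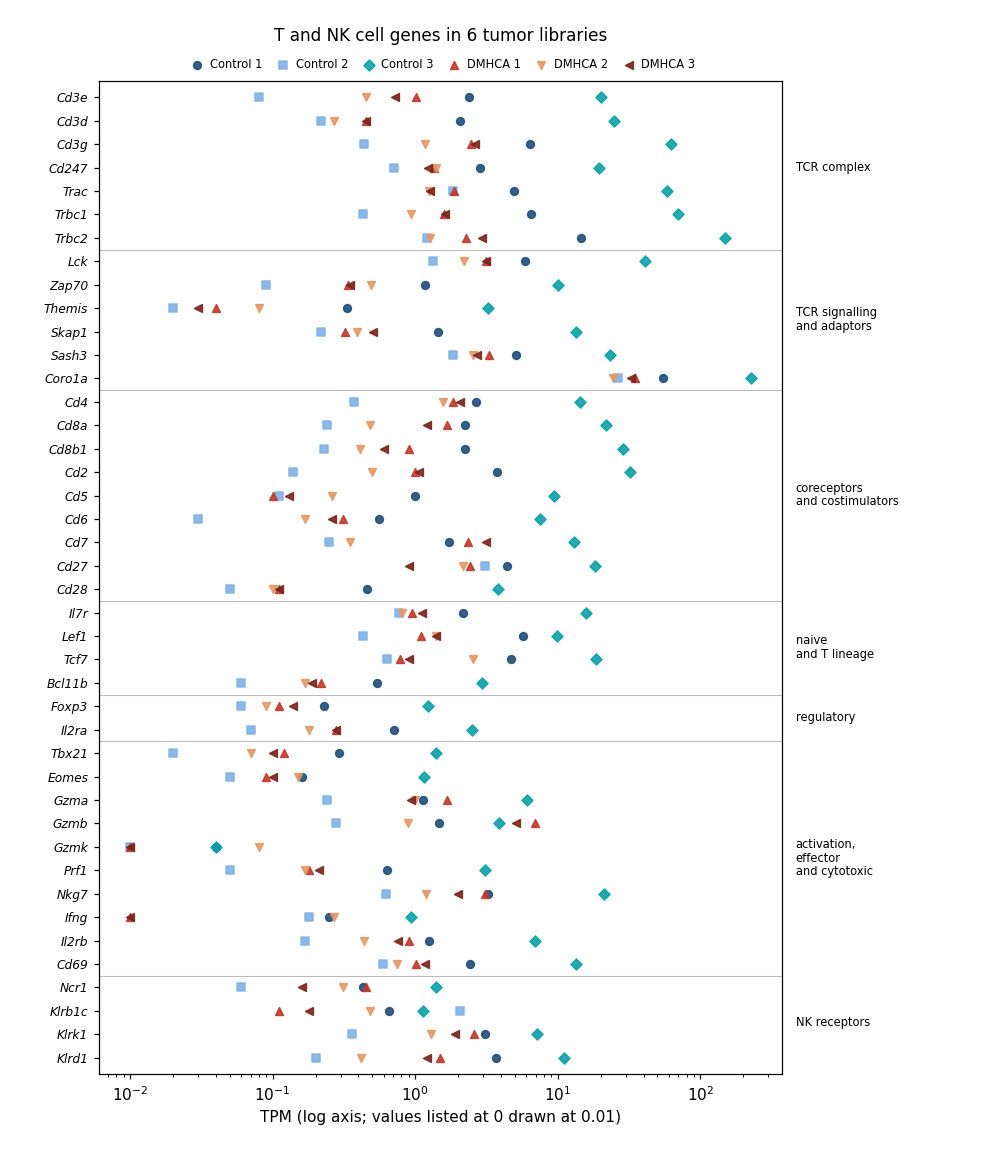
Level of each of the 42 T and NK cell genes in TPM (x, log axis) in the 6 libraries, with 1 point per library and the genes grouped by role. Control library 3 lies to the right in nearly every line, the DMHCA libraries mostly lie between control libraries 1 and 2, and Gzmb is the gene at which DMHCA libraries 1 and 3 exceed every control.

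The comparison of DMHCA with control tumors asked which of these genes differed under the LXR agonist. Of the 42 genes, 40 passed the filter on low counts, while Gzmk and Ifng did not. The DMHCA mean was lower for 39 genes and higher for 1, Gzmb. The median log2 fold change over the 40 genes was -2.91, beside -0.03 over the 19427 genes tested, with a range from -5.03 (Themis) to 0.82 (Gzmb). By edgeR's quasi-likelihood test with Benjamini-Hochberg adjustment, 0 of the 40 genes passed an adjusted p of 0.05 (background 0%, 0 of 19427), and their adjusted p ranged from 0.644 to 0.835. At an unadjusted p under 0.05, 6 of the 40 genes were lower (Cd3d, Trac, Trbc2, Themis, Cd27 and Klrb1c; background 4.08% lower) and 0 were higher (background 3.53% higher). In TMM-scaled counts, both DMHCA samples lay below all 3 controls for 5 genes, Trac, Coro1a, Cd27, Il7r and Klrb1c (background 12.2%), and above all 3 for 0 genes (background 13.8%). Coro1a and Il7r did so by a narrow margin and not in TPM. DESeq2 on the same 5 samples called 3 of the genes lower at an adjusted p under 0.05, Trac, Themis and Cd27 (background 1%). DESeq2 on the 6 libraries, which counts DMHCA libraries 1 and 3 separately, called 13 (background 2.62%): Cd247, Trac, Trbc2, Zap70, Themis, Skap1, Cd5, Cd27, Cd28, Il7r, Tcf7, Bcl11b and Klrb1c.

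Control library 3 was the highest sample for 38 of the 40 genes, against 27.4% of all genes tested. Control library 2 was the lowest for 27 of the 40, against 24.7% of all genes. Both DMHCA samples were below control 1 for 37 genes and above control 2 for 27 genes. Without control library 3, the median log2 fold change was -0.81, the DMHCA mean was lower for 33 of 39 genes and higher for 6, and 3 genes were lower at an unadjusted p under 0.05 (Trac, Cd27 and Klrb1c; background 3.27%). Without control library 2, 33 of the genes were lower at that level (background 6.48%). Counts for this list therefore moved with a single control library in either direction.

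**Figure D2:**
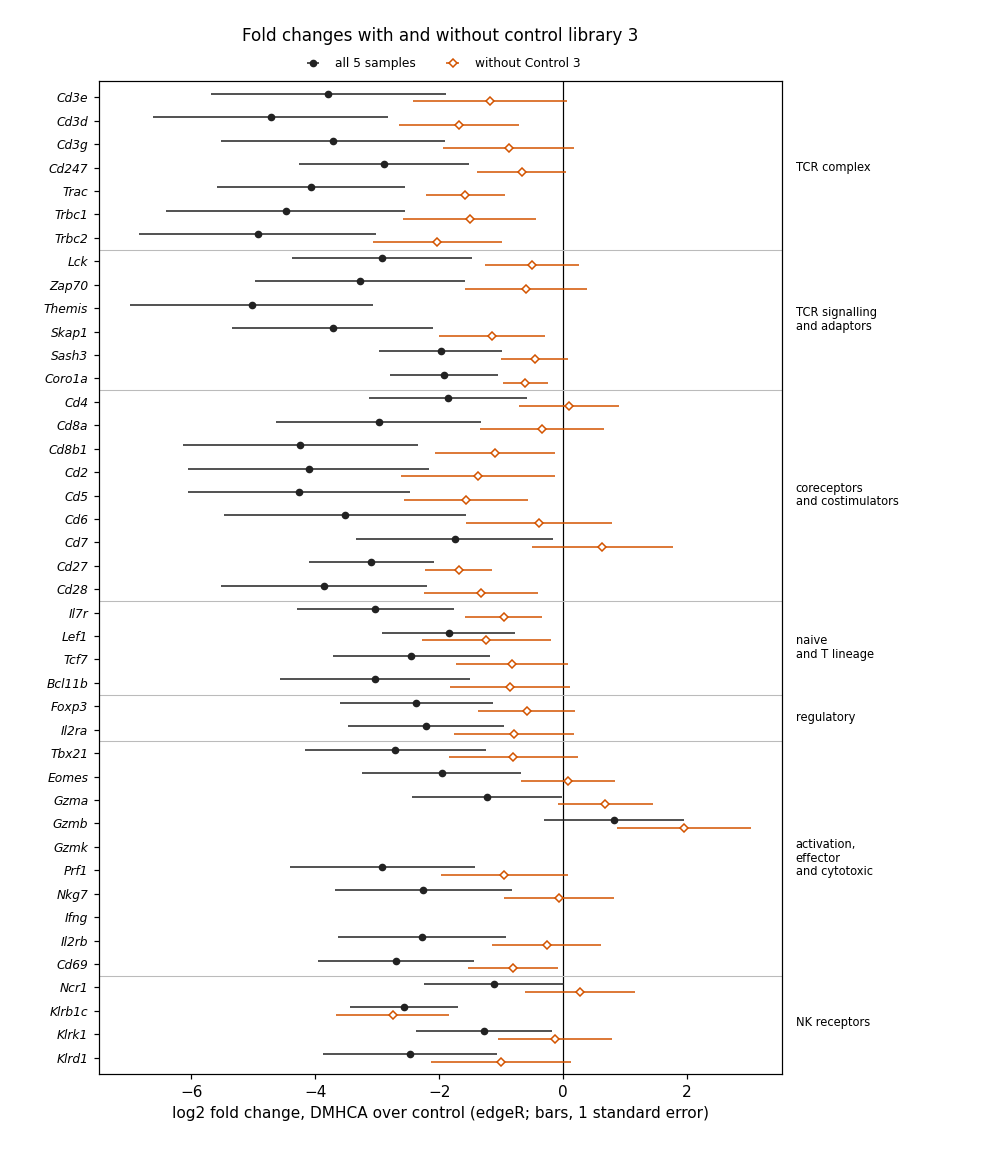
Log2 fold change of DMHCA over control for each gene (x), from edgeR on all 5 samples (filled points) and without control library 3 (open points), with bars of 1 standard error. Leaving out control library 3 moved most genes toward 0, while Klrb1c stayed at -2.75 and Cd4, Cd7, Eomes, Gzma and Ncr1 crossed to values above 0.

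In the TCR complex, all 7 genes had lower DMHCA means, with a median log2 fold change of -4.07 (-1.51 without control library 3). Values are given below in the order of libraries 1, 2 and 3 of each group. Cd3e, the CD3 epsilon chain (chr9:44998740-45009627, GRCm38), stood at 2.4, 0.08 and 20.22 TPM in the controls and at 1.01, 0.45 and 0.72 TPM with DMHCA. Cd3d, the delta chain encoded nearby (chr9:44981786-44987339), had 2.05, 0.22 and 24.97 TPM in the controls and 0.45, 0.27 and 0.45 TPM with DMHCA. For both genes the DMHCA values fell inside the span of the controls, because control library 2 was lower than any DMHCA library. Cd3e averaged 7.57 ± 11 TPM in the controls (SD, n = 3) and 0.657 ± 0.293 TPM with DMHCA (SD, n = 2), so the spread among controls exceeded the difference. The log2 fold change of Cd3e was -3.79 ± 1.89 (SE), and -1.18 without control library 3. That of Cd3d was -4.72 ± 1.90, and -1.68 without control library 3. Cd3g, the gamma chain, again had its lowest value in control library 2, with 6.34, 0.44 and 62.04 TPM in the controls and 2.47, 1.17 and 2.63 TPM with DMHCA. Cd247, the zeta chain, had 2.87, 0.71 and 19.49 TPM against 1.35, 1.39 and 1.22 TPM, the narrowest change of the complex (-2.89 ± 1.37). An antisense gene overlaps exons of Cd3e, and the counting is not stated to use strand, so its reads could not be told from those of Cd3e. The same holds for Cd247, Themis, Skap1, Coro1a, Cd7, Lef1, Foxp3 and Eomes, which antisense genes also overlap.

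Trac, the constant region of the TCR alpha chain (chr14:54220521-54224206), had 4.91, 1.83 and 58.66 TPM in the controls and 1.87, 1.25 and 1.27 TPM with DMHCA. It was the gene of the complex at which the 2 DMHCA samples lay below every control, although DMHCA library 1 on its own was level with control library 2. Its log2 fold change was -4.07 ± 1.51, and -1.58 without control library 3, with an unadjusted p of 0.0449 in that smaller comparison.

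Trbc1 and Trbc2 encode near-identical constant regions of the TCR beta chain, and the deposited counts divide their shared reads. Their 518 coding bases in GENCODE differ at 23 positions (95.6% identical), and the first exon of 375 bases differs at 1. The stretch around that base, in capitals, runs over bases 221 to 300 of the exon, at chr6:41538438-41538517 for Trbc1 and chr6:41546950-41547029 for Trbc2 (GRCm38, plus strand).
Trbc1: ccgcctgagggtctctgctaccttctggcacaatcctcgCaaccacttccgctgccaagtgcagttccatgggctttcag
Trbc2: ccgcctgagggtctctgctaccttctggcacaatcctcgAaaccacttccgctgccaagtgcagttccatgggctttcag
The longest run without a difference was 259 bases. Added together, the expected counts of the pair were 433, 47 and 4462 in the controls and 83, 42 and 88 with DMHCA. The sum was a whole number in every library, while the counts of each gene alone need not be. Summed as 1 gene, their log2 fold change was -4.77 ± 1.90, next to -4.48 ± 1.93 for Trbc1 and -4.93 ± 1.91 for Trbc2.

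Among the 6 signalling genes the median log2 fold change was -3.10 (-0.60 without control library 3), and all 6 DMHCA means were lower. Themis, a scaffold of TCR signalling in thymocytes, had 0.33, 0.02 and 3.23 TPM in the controls and 0.04, 0.08 and 0.03 TPM with DMHCA. It had the widest change of the 40 genes (-5.03 ± 1.96), yet control library 2 was below all 3 DMHCA libraries. The kinase gene Lck was at 5.89, 1.34 and 41.06 TPM against 3.15, 2.21 and 3.13 TPM, again with control library 2 lowest (-2.93 ± 1.45). Zap70 and the adaptor gene Skap1 had changes of -3.28 and -3.72. Coro1a and Sash3, which leukocytes other than T cells also express, had the narrowest changes of the group, -1.93 ± 0.87 and -1.98 ± 0.99. Coro1a, an actin-binding coronin, was the most abundant of the 42 genes, at 54.55, 26.26 and 226.85 TPM in the controls and 34.75, 24.53 and 32.62 TPM with DMHCA.

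The 9 coreceptor and costimulator genes had a median log2 fold change of -3.52 (-1.10 without control library 3), all with lower DMHCA means. Cd4 was at 2.66, 0.37 and 14.29 TPM in the controls and 1.83, 1.56 and 2.05 TPM with DMHCA. Cd8a was at 2.23, 0.24 and 21.70 TPM against 1.67, 0.48 and 1.21 TPM. The DMHCA libraries thus held Cd4 nearer to the level of control library 1 than to that of control library 2, and the change of Cd4, -1.86 ± 1.28, became 0.09 without control library 3. The changes of Cd8a and of Cd8b1, the 2 chains of CD8, were -2.98 ± 1.65 and -4.24 ± 1.89, and -0.35 and -1.10 without control library 3.

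Cd27, a costimulator of the TNF receptor family (chr6:125232622-125237010), had 4.40, 3.08 and 18.37 TPM in the controls and 2.43, 2.16 and 0.90 TPM with DMHCA. Every DMHCA library was below every control library. Its log2 fold change was -3.10 ± 1.01, and -1.69 without control library 3 (unadjusted p 0.0185), and it had the smallest unadjusted p of the 40 genes (0.0199). DMHCA libraries 1 and 3 differed at Cd27 by a scaled ratio of 2.3, with 66 and 27 counts. The adhesion receptor Cd2 and the receptors Cd5 and Cd6 had changes of -4.11, -4.27 and -3.52, and the costimulator Cd28, which binds B7 ligands, one of -3.86. Cd7, a receptor of T and NK cells, was at 1.74, 0.25 and 13.10 TPM in the controls and 2.36, 0.35 and 3.15 TPM with DMHCA, so 2 of the DMHCA libraries exceeded control library 1. Its change was -1.75 ± 1.59, and 0.63 without control library 3.

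For the naive and T lineage genes the median log2 fold change was -2.74 (-0.91 without control library 3). At an unadjusted p under 0.05, 0 of the 4 passed (background 4.08% lower and 3.53% higher). Lef1, a transcription factor of naive T cells, had 5.72, 0.43 and 9.81 TPM in the controls and 1.09, 1.39 and 1.39 TPM with DMHCA. Control library 3 exceeded control library 1 by 1.72-fold at Lef1, against a median of 6.53-fold over the list, so Lef1 depended less on that library (-1.85 ± 1.07, and -1.24 without it). Tcf7, its relative, had 4.72, 0.63 and 18.54 TPM against 0.78, 2.54 and 0.90 TPM. DMHCA library 2 was the highest of its group at Tcf7, where most genes of the list, 33 of 40, were higher in DMHCA libraries 1 and 3. Il7r, the interleukin 7 receptor, was at 2.18, 0.77 and 15.72 TPM in the controls and 0.95, 0.81 and 1.11 TPM with DMHCA, a change of -3.03 ± 1.27. Its DMHCA samples were below every control in TMM-scaled counts by a margin of 2.4 against 2.41 counts per 1000000, and not below control library 2 in TPM. Bcl11b, a T lineage factor, had a change of -3.04 ± 1.53.

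Regulatory T cell genes were present at low levels. Foxp3, the factor that defines these cells, had 0.23, 0.06 and 1.23 TPM in the controls and 0.11, 0.09 and 0.14 TPM with DMHCA. Il2ra, the alpha chain of the interleukin 2 receptor, had 0.71, 0.07 and 2.49 TPM against 0.28, 0.18 and 0.28 TPM. For both genes the DMHCA libraries lay between control libraries 1 and 2 in TPM. Foxp3 had 10.53 expected counts in control library 2 and 15.85, 10.30 and 18.87 with DMHCA, so by counts DMHCA library 2 was not above control library 2. The changes were -2.37 ± 1.24 for Foxp3 and -2.21 ± 1.26 for Il2ra, and -0.59 and -0.79 without control library 3. Genes on both strands overlap exons of Foxp3, so part of its count is uncertain.

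The 10 activation, effector and cytotoxic genes gave the smallest median among the T cell groups, -2.27 over the 8 tested (-0.17 without control library 3). At an unadjusted p under 0.05, 0 of the 8 passed (background 4.08% lower and 3.53% higher). Gzmb, granzyme B, a protease that induces apoptosis in target cells (chr14:56258838-56262260), had 1.46, 0.28 and 3.87 TPM in the controls and 6.91, 0.89 and 5.11 TPM with DMHCA. These values were 73, 19 and 187 expected counts in the controls and 352, 40 and 246 with DMHCA. DMHCA libraries 1 and 3 were above every control, while DMHCA library 2 was below control libraries 1 and 3. Since the first pair counts as 1 sample, the higher mean rested on it. The log2 fold change was 0.82 ± 1.13 (unadjusted p 0.495), and 1.95 without control library 3.

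Prf1, the pore-forming perforin through which granzymes reach their targets, did not share this order. It had 0.63, 0.05 and 3.10 TPM in the controls and 0.18, 0.17 and 0.21 TPM with DMHCA, a change of -2.92 ± 1.49. Levels of Gzmb over Prf1 in TPM were 2.32, 5.60 and 1.25 in the controls and 38.4, 5.24 and 24.3 with DMHCA, so the ratio was high in DMHCA libraries 1 and 3 and within the control span in DMHCA library 2. Gzma, granzyme A, had 1.13, 0.24 and 6.13 TPM in the controls and 1.66, 1 and 0.93 TPM with DMHCA (-1.23 ± 1.21, and 0.68 without control library 3). Nkg7, a granule protein of killer cells, was at 3.22, 0.62 and 21.02 TPM against 3.11, 1.19 and 2 TPM (-2.26 ± 1.43). The T-box factors Tbx21 and Eomes had changes of -2.71 and -1.96, the latter 0.08 without control library 3. Il2rb, the interleukin 2 receptor beta chain, and the early activation marker Cd69 had changes of -2.28 and -2.70.

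Gzmk and Ifng were too sparse to test. Gzmk, granzyme K, had 1, 0 and 1 expected counts in the controls and 0, 2 and 0 with DMHCA. Ifng, interferon gamma, had 4, 2 and 37 counts in the controls and 0, 4 and 0 with DMHCA. A difference in Gzmk was not detectable at this depth, and the count of Ifng came mostly from control library 3.

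NK receptor genes had a median log2 fold change of -1.88 (-0.57 without control library 3), the smallest of the 7 groups. Ncr1, the NKp46 receptor that marks NK cells, was at 0.43, 0.06 and 1.4 TPM in the controls and 0.45, 0.31 and 0.16 TPM with DMHCA. Its change was -1.12 ± 1.13, and 0.27 without control library 3, so its groups overlapped broadly. Klrk1, the NKG2D receptor, and Klrd1, the CD94 chain, had changes of -1.28 ± 1.10 and -2.47 ± 1.40. Klrk1 was at 3.07, 0.36 and 7.15 TPM in the controls and 2.58, 1.29 and 1.91 TPM with DMHCA, and Klrd1 at 3.67, 0.20 and 11.04 TPM against 1.5, 0.42 and 1.21 TPM.

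Klrb1c, the NK1.1 antigen (chr6:128778485-128789215), had an order of its own. It was at 0.66, 2.05 and 1.13 TPM in the controls and 0.11, 0.48 and 0.18 TPM with DMHCA. Control library 2, the lowest at most genes of the list, was the highest here, and every DMHCA library was below every control. The log2 fold change was -2.57 ± 0.87 (unadjusted p 0.0234) and -2.75 without control library 3. Its neighbours Klrb1a and Klrb1b, looked at after the values of Klrb1c were seen, are similar genes between which reads may have been divided. Another gene, Gm44511, overlaps exons of Klrb1c and of Klrb1b on the same strand, so part of their counts is uncertain. Klrb1a had 412, 2057 and 33.6 expected counts in the controls and 19, 121 and 6 with DMHCA, and so was also highest in control library 2. Klrb1b had 106, 209 and 242 expected counts in the controls and 26, 22 and 22 with DMHCA, with no overlap between the groups.

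Ratios within a library remove the excess of these genes in control library 3 as far as it was equal for both genes. Each level, with 0.5 TPM added, was set against Cd4 or against the mean of Cd3e, Cd3d and Cd3g, and the 12 ratios were compared by an exact two-sided permutation test over the 5 samples. With 3 against 2 samples the smallest p it allows is 0.2, and the Benjamini-Hochberg adjusted p was 0.8 for all 12. Of these, 3 did not overlap between the groups, each at that smallest unadjusted p, and only Gzmb to CD3 among the 3 stayed so with 0.1 TPM added, with nothing added and in TMM-scaled counts. The log2 ratio of Cd8a to Cd4 was -0.21, -0.23 and 0.59 in the controls and -0.33 and -1.07 in the DMHCA samples, a difference of -0.75, and of -0.48 without control library 3. With nothing added, the log2 ratio was -0.62 in control library 2 and -0.43 in DMHCA libraries 1 and 3, so the groups overlapped. The log2 ratio of Gzmb to CD3 was -1.06, 0.06 and -3.05 in the controls, 1.86 in the mean of DMHCA libraries 1 and 3, and 0.30 in DMHCA library 2. It differed by 2.43, and by 1.58 without control library 3. The log2 ratio of Gzma to CD3 was -1.33, -0.01 and -2.45 in the controls and 0.01 and 0.41 in the DMHCA samples, which set it apart from control library 2 by a narrow margin, and the groups overlapped in TMM-scaled counts. It differed by 1.47 and, without control library 3, by 0.88. Other cytotoxic and NK genes overlapped between the groups in these ratios: Prf1 to CD3 differed by 0.82, Nkg7 to CD3 by 0.78 and Ncr1 to CD3 by 1.45. In TMM-scaled counts Nkg7 to CD3 did not overlap. For Foxp3 the difference was 1.20, and 0.22 without control library 3. The 0.5 TPM added exceeded Foxp3 in every library but control library 3, and exceeded the CD3 mean of control library 2 (0.247 TPM). With nothing added, the log2 ratio of Foxp3 was -3.97, -2.04 and -4.86 in the controls and -3.37 and -2.81 in the DMHCA samples. That of Prf1 was then -2.51, -2.30 and -3.53 against -2.72 and -1.89. The differences of Lef1, Il7r and Klrb1c changed sign when control library 3 was left out (0.65 to -0.11, 0.33 to -0.08 and 0.67 to -0.81).

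**Figure D3:**
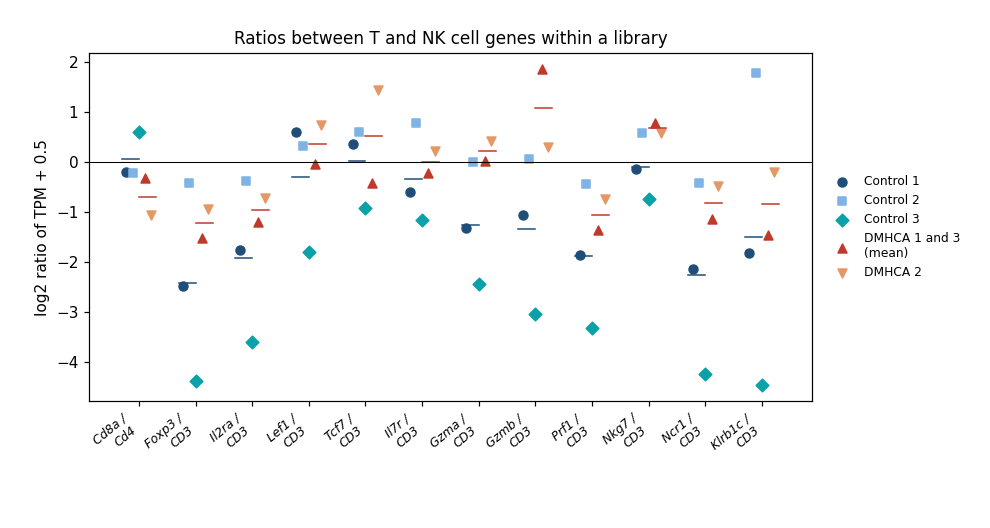
Log2 ratio of each gene to Cd4 or to the mean of the 3 CD3 genes within a library (y, with 0.5 TPM added), with 1 point per sample and short lines at the group means. Control library 3 is lowest in each ratio to CD3, and with 0.5 TPM added the DMHCA samples do not overlap the controls for Cd8a to Cd4, Gzma to CD3 and Gzmb to CD3. The first overlaps with nothing added and the Gzma ratio in TMM-scaled counts.

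Other genes of the same pathways were read from lists of the same kind, against a background over all genes of 4.08% lower and 3.53% higher at an unadjusted p under 0.05. Of 19 further TCR signalling genes, 8 were lower and 1, Plcg1, was higher at an unadjusted p under 0.05, with a median log2 fold change of -2.41 (-0.95 without control library 3). Without control library 3, 2 of 17 such genes were lower and 0 higher. The background of that comparison, here and below, was 3.27% lower. Txk, a Tec family kinase, was at 0.65, 0.25 and 4.86 TPM in the controls and 0.21, 0.08 and 0.12 TPM with DMHCA, with no overlap (-3.97 ± 1.41). Of 10 further naive and homing genes 3 were lower (1 of 9 without control library 3), among them Klf2, a transcription factor of resting T cells, at 14.48, 16.54 and 30.86 TPM in the controls and 11.89, 12.02 and 11.50 TPM with DMHCA. Of 10 further regulatory genes tested 1 was lower, and without control library 3 another, Capg, was the 1 of 8 lower. The first was Ctla4, an inhibitory receptor, at 0.66, 0.05 and 3.84 TPM in the controls and 0.08, 0.06 and 0.15 TPM with DMHCA, which did not pass the filter on low counts without control library 3. Of 18 further cytotoxic and NK genes 2 were lower, Tyrobp and Slamf7, and 0 were higher, and without control library 3 the count lower was 0. In control library 2, Tyrobp, Capg and Plcg1 were at 141.08, 490.55 and 15.99 TPM, where Ncr1, Foxp3 and Cd3e were at 0.06, 0.06 and 0.08 TPM. Which cells the RNA of Tyrobp, Capg and Plcg1 came from was not tested. Of 3 gamma-delta T cell genes tested 1 was higher, Sox13, at 18.94, 8.04 and 8.49 TPM in the controls and 37.98, 38.22 and 38.35 TPM with DMHCA. Its log2 fold change was 1.52 ± 0.34, and 1.34 without control library 3. Sox13 is a transcription factor with expression outside T cells. The delta chain constant gene Trdc was at 0.31, 0.05 and 1.09 TPM against 0.13, 0.08 and 0.09 TPM.

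Markers of B cells and of lymph node stroma moved with the T and NK cell genes. The 13 B cell genes summed to 89.5, 14.3 and 650 TPM in the controls and 19.7, 15.6 and 17.8 TPM with DMHCA. All 13 were highest in control library 3 (27.4% of all genes), and 10 were lower at an unadjusted p under 0.05 (4.08% of all genes). Without control library 3, 3 of 10 tested were lower (3.27% of all genes). The median log2 fold change of the B cell genes was -5.97 (-2.80 without control library 3). The 9 genes of follicular dendritic cells and lymph node stroma summed to 73.1, 4.71 and 648 TPM against 16.5, 6.18 and 17.0 TPM. All 9 were highest in control library 3, 7 were lower at that level (the same backgrounds; 2 of 5 tested without control library 3), and their median was -5.49 (-1.93 without control library 3). Ccl19, a chemokine of lymph node stroma, was at 8.39, 0.73 and 103.80 TPM in the controls and 0.59, 0.30 and 0.45 TPM with DMHCA. Control library 3 exceeded control library 1 by a median of 6.53-fold over the T and NK cell genes, 8.03-fold over the B cell genes, 7.78-fold over the stroma genes and 1.31-fold over 10 macrophage genes. Control library 1 exceeded control library 2 by 7.39-fold, 13-fold and 11.7-fold over the first 3 of these lists. None of the B cell or stroma markers was at 0 in every library, and their part in the difference between the groups was not tested. Macrophage genes had a median log2 fold change of -0.16 and luminal epithelial genes one of 0.16, with 0 genes of either list at an unadjusted p under 0.05. Krt19, a keratin of the luminal list looked at after its values were seen, nevertheless had 43.85, 4.73 and 435.19 TPM in the controls and 20.06, 1.51 and 19.54 TPM with DMHCA (-4.01 ± 1.95, and -1.25 without control library 3).

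**Figure D4:**
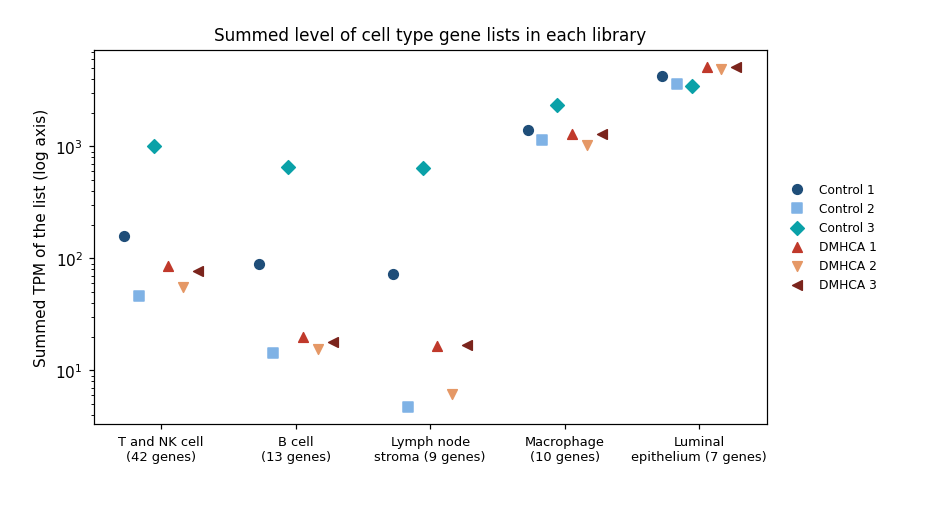
Summed TPM (y, log axis) of the T and NK cell genes and of 4 marker lists in each of the 6 libraries. The T and NK cell, B cell and lymph node stroma lists put the libraries in much the same order with control library 3 on top, while the macrophage and luminal epithelium sums vary far less.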

How the data were processed

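RNA of 3 control and 3 DMHCA libraries was sequenced. Per the labels, the authors used FastQC 0.11.9, cutadapt 2.9, Bowtie2 2.4.1, RSEM 1.3.1, DESeq2 1.26 and R 3.6, with the mm10 genome and Ensembl release 99. The authors deposited RSEM expected counts (estimated reads per gene, not normalized), TPM and FPKM for each library. FPKM values were deposited but not used here, and neither were the deposited gene lengths. Here expected counts were rounded and compared with edgeR 4.0.16 in R 4.3.3 (TMM, filterByExpr at its defaults of 10 reads per gene and 15 in all, quasi-likelihood F-test, Benjamini-Hochberg adjustment over 19427 genes), with DMHCA libraries 1 and 3 summed. No covariate was used. Fold changes are DMHCA over control. Errors after ± are standard errors unless marked SD. Levels are deposited TPM, and per-length comparisons use TPM only.

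Alternatives were DESeq2 1.42.0, limma 3.58.1 on log2(TPM + 0.5), other scalings, filters and dispersions, a replicate block, each library left out, and, added after seeing the data, Trbc1 and Trbc2 summed and ratios without a pseudocount. The scripts were tested on simulated data. The 42 genes, the other gene lists and the motifs were chosen with earlier results of these data known. All 42 genes are named, and other genes only from the T, NK, B cell and stroma lists (up to the 3 with the smallest p), or where a result turned on them. Krt19, Klrb1a, Klrb1b and single genes in the closing section are outside this rule and were named after their values were seen. Same-numbered libraries were checked for pairing by the correlation of their deviations from the group means (-0.0585, 0.342 and 0.359) and were not treated as pairs. Per the study, the 6 libraries are from tumors of 6 mice, which the sample labels do not state. DMHCA libraries 1 and 3 were nonetheless counted as 1 sample, and p-values measure the spread between these samples. Coordinates are from GENCODE mouse release 21 (GRCm38), which held 99.6% of the gene IDs. RSEM's strand setting is not given in the sources used here.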

Additional observations from a re-analysis of the deposited data

How the results depend on the processing

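The median log2 fold change of the T and NK cell genes stayed below 0 in every alternative run, between -3.46 and -0.81 when libraries were left out in turn. It was -1.62 with the replicate block on 6 libraries and -1.21 with limma on log2(TPM + 0.5), where the median of all genes was 0.13. The number of genes lower at an unadjusted p under 0.05, 6 in the comparison reported, is given here with the share of all genes lower. It was 29 by DESeq2 on the 5 samples (4.35%), 35 by DESeq2 on the 6 libraries (6.19%), 23 by edgeR on the 6 libraries without the replicate block (8.03%), 6 with it (8.08%), 33 with no filter on low counts (5.1%), 1 by limma on TPM (1.83%), and 0 at an unadjusted p under 0.01 (0.623%). With libraries left out it ranged from 1 (without DMHCA library 2, 1.48%, which leaves 1 DMHCA sample that is assumed to vary as the controls do) to 33 (without control library 2, 6.48%), and was 3 without control library 3 (3.27%). At an adjusted p under 0.05 the list had 3 genes by DESeq2 on the 5 samples and 13 on the 6 libraries, and all genes tested had 246 and 839, and 16 by edgeR with no filter. The replicate block changed no adjusted call of edgeR.

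Of 669 gene values under 17 alternatives, 648 kept their direction and side of the 0.05 level of the adjusted p, 16 passed it, and 5 changed sign, all without control library 3: Cd4 (-2.41 to 0.09 over the left-out libraries), Cd7 (-2.31 to 0.63), Eomes (-2.49 to 0.08), Gzma (-1.76 to 0.68) and Ncr1 (-1.65 to 0.27). Among the ratios to CD3, Il7r turned to -0.01 with TMM-scaled counts and Klrb1c to -0.31 with nothing added. With libraries left out, Lef1 ranged from -0.11 to 1.10, Il7r from -0.08 to 0.88, Klrb1c from -0.81 to 2.31 and Tcf7 from -0.42 (without DMHCA library 2) to 0.80. The causes were not tested. Depth limits the genes with few reads, Gzmk and Ifng first.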

Other observations

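Other marker lists were read beside the T and NK cell genes at an unadjusted p under 0.05 by edgeR's quasi-likelihood test, at which 4.08% of all genes tested were lower and 3.53% higher. Without control library 3, 3.27% were lower. Of the 6 adipocyte genes 5 were lower, also without control library 3, and their levels summed to 214, 126 and 937 TPM in control libraries 1, 2 and 3 and to 82.8, 74.7 and 80.2 TPM in DMHCA libraries 1, 2 and 3. All 6 were highest in control library 3. Of the 8 dendritic cell genes 3 were lower (Cd209a, Itgax and Siglech; 0 without control library 3), with sums of 22.1, 14.5 and 39 TPM against 16, 11.5 and 15.2 TPM. Of 7 neutrophil genes tested 1 was lower (Retnlg). Their sum was 216 TPM in DMHCA library 2 and 11.5 to 59.2 TPM elsewhere, and S100a8 alone made up 198.65 TPM of that 216. Of 6 endothelial genes 1 was higher (Cdh5). Fibroblast, mast cell and innate lymphoid, and skeletal muscle genes had 0 at that level. The single genes named here, and Plcg1, were named after their values were seen.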
